A study of Mus musculus with 11 samples.

Results

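Lung tumors carrying the tag ADC were compared with the adjacent normal lung of the same mouse, in mice m335, m372 and m378. These 6 libraries, 3 tumors and 3 normal lungs, are 6 of the 11 libraries sequenced. They were taken by the ADC or N tag in the library title and paired by the mouse identifier. Every animal in the series, controls included, lacked Gprc5a (Gprc5a-/-) and had received NNK, a nitrosamine of tobacco smoke, dosed at 50 mg per kg over 8 weeks with 3 doses each week. Tissue from mouse m335 was dated 4 months after NNK, and tissue from mice m372 and m378 7 months. The remaining libraries were 3 tumors tagged ADN and 2 further normal lungs. The labels do not spell out either tag and give no age at sampling. The normal lungs lay next to a tumor in a carcinogen-treated knockout, and no untreated or wild-type lung was among the samples used here. Levels below are CPM, a gene's share of the scaled library total.

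As background, Gprc5a encodes an orphan G protein-coupled receptor of airway and alveolar cells that retinoic acid induces, and mice without it are prone to lung tumors. Lung adenomas and adenocarcinomas of mice mostly resemble alveolar type 2 cells, which make surfactant and renew the alveolar lining. The MAPK pathway, driven by receptors such as the EGF receptor and by Ras proteins, is the pathway most often active in carcinogen-induced mouse lung tumors. Around the tumor cells, a normal alveolus holds thin type 1 cells, a dense capillary bed, lipid-storing fibroblasts and patrolling immune cells, all of which contribute RNA to a bulk library.

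The knocked-out gene had a summed count of 2, 3 and 4 in the normal lungs of mice m335, m372 and m378, and of 19, 13 and 7 in their ADC tumors. Mouse m372 gave both the lowest total count, 19938822 in normal lung, and the highest, 46987587 in tumor. Between 7.29% and 18.1% of each total fell on Rn45s, the precursor of ribosomal RNA. In bulk tissue, fewer cells of a type and less RNA per cell cannot be told apart. Some libraries were high in genes typical of skeletal muscle, thymus or cardiac muscle, and the source of that RNA was not tested. The normal lung of mouse m335 summed to 856 CPM over 16 skeletal muscle genes, against 96.0 and 164 CPM in the other normal lungs. The normal lung of mouse m372 summed to 892 CPM over 13 thymus genes, against 62.0 and 65.7 CPM, with 214 CPM of Rag1, the recombinase of developing lymphocytes, and 87.6 CPM of Dntt, the terminal transferase of the same cells. The ADC tumor of mouse m372 summed to 2127 CPM over 12 cardiac muscle genes, against 50.1 CPM in the tumor of mouse m335 and 665 CPM in that of mouse m378.

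**Figure D1:**
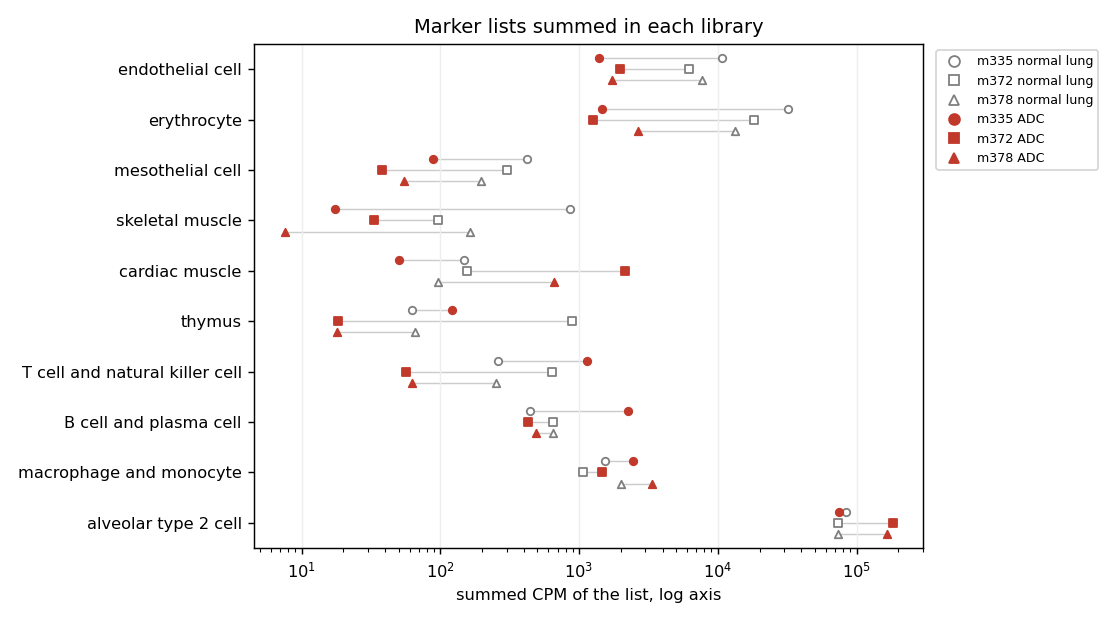
Summed CPM of 10 marker lists (horizontal log axis) in each normal lung (open symbols) and ADC tumor (filled symbols), with a line joining the samples of a mouse. Endothelial, erythrocyte and mesothelial sums were lower in every tumor, whereas the T cell and B cell sums of the m335 tumor lay to the right of its normal lung and those of the other tumors to the left.

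With mouse as a block and the 6 libraries alone, none of 15227 genes passed an adjusted p of 0.05 (edgeR quasi-likelihood, Benjamini-Hochberg), so 0% were called. The smallest adjusted p was 0.0507, 632 genes lay under 0.1, and 2640 had an unadjusted p under 0.05, of which 965 were higher and 1675 lower in the tumors. The fit leaves 2 residual degrees of freedom. A fit of all 11 libraries, which estimates the spread from the ADN tumors and further normal lungs as well, called 154 genes higher and 599 lower in ADC tumors than in normal lungs, or 0.977% and 3.8% of 15764. Below, "rose" and "fell" are used only of genes that passed in that wider fit, and adjusted p-values are from it unless the 6-library fit is named. These calls lean on mouse m378, since 71 genes passed without its normal lung and 76 without its tumor. With mouse as a block, leaving out either library removes that pair from the comparison, so these are nearly the same check. The same holds for mouse m372. Of 90 genes followed by name, 70 passed with all libraries and 17 with any 1 of the 6 left out. The 90 were picked largely by low p or after their values were seen, so these counts are no rate over all genes. Those 17 were Cd276, Kng2, Etv4 and Ereg, which rose, and Wnt2, Glb1l2, Cyp4b1, Ogn, Cdo1, Ripply3, Cav1, Cldn5, Tcf21, Col13a1, Upk1b, Fmo1 and Inmt, which fell.

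Counted without a test, 167 genes were at least 2-fold higher in the tumor of all 3 pairs and 1035 at least 2-fold lower, which is 1.1% and 6.8% of those tested. Of the 167, 94 rose in the fit of all 11 libraries, and 502 of the 1035 fell. By any amount, 20.9% of the genes were higher in every pair and 22.4% were lower. Counts below of list members higher or lower in every pair are to be read against these shares. Every ADC library lay above every paired normal lung for 12.5%, and below for 15.8%.

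Among the genes with the lowest p, the promoters of Areg and Cyp4b1 are shown as one example in each direction, because each held one of the 3 motifs searched. Both windows hold the 250 bases before the gene's start, 5′ to 3′ on the gene's own strand, from RefSeq (GRCm38.p6). The capitals mark the motif. In Areg (chr5:91139349-91139598, plus strand) it is a cAMP response element that begins 61 bases before the start. In Cyp4b1 (chr4:115647722-115647971, minus strand) it is a match to the AP-1 search pattern TGANTCA that begins 169 bases before the start. The N of that pattern allows any base, and in Cyp4b1 it is A.
Areg: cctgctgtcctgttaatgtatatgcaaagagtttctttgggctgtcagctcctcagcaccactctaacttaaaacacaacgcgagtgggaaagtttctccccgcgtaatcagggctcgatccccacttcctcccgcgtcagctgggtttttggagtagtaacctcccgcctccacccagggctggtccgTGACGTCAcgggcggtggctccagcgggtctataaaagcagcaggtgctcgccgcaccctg
Cyp4b1: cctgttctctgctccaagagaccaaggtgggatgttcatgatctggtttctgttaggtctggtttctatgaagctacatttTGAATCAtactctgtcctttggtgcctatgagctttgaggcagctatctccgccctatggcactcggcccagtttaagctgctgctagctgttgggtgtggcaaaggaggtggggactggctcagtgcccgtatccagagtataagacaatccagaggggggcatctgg

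Across the 11570 tested genes with a RefSeq promoter, the cAMP response element TGACGTCA was present on either strand in 2.61%, the AP-1 motif TGANTCA in 4.78% and the ETS motif CCGGAAGT in 5.42%. The first 2 motifs share the ends TGA and TCA but differ in length, so no site matches both. The N of the AP-1 motif allows any base, so its shares are those of a loose pattern and not of a stricter AP-1 site. Of the 119 promoters of genes at least 2-fold higher in all pairs, 2.52% held the cAMP response element, 7.56% the AP-1 motif and 0.840% the ETS motif. Of the 694 promoters of genes at least 2-fold lower, the shares were 1.30%, 7.35% and 0.720%. Among genes called in the fit of all 11 libraries, the shares for the cAMP response element, AP-1 and ETS motifs were 4.63%, 8.33% and 1.85% of 108 promoters of genes that rose, and 1.99%, 5.47% and 0.995% of 402 promoters of genes that fell. The shares rest on few promoters (9 with AP-1 and 1 with ETS among the 119), and no difference between them was tested.

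The genes higher in tumors with the lowest p included a ligand of T cell costimulation, a regulator of MAPK signaling and a ligand of the EGF receptor. They are the 12 with the lowest p among genes of at least 5 CPM with one direction in all pairs, and they miss the threshold in the 6-library fit (adjusted p 0.0507 to 0.0527). All 12 rose in the fit of 11 libraries, which contains the same 6 libraries and so is not an independent check. Fitted fold changes ran from 3.67 to 41.2.

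Tnfsf9 (chr17:57105385-57107757) encodes 4-1BBL, which stimulates the T cell receptor 4-1BB. It measured 5.78, 8.24 and 8.70 CPM in the normal lungs of mice m335, m372 and m378, and 50.5, 87.8 and 120 CPM in their tumors. Every tumor was above every normal lung, and the fold change was 10.9 (log2 3.44, SE 0.24 in the 6-library fit, adjusted p 0.00688 in all 11). Tnfsf9 overlaps Gm11110, and strand use in counting is not given in the sources used here. Cd276 (chr9:58524300-58540940), the B7-H3 member of the immune checkpoint family, went from 10.9, 11.5 and 10.1 CPM to 49.3, 48.4 and 38.2 CPM. The tumors differed little among themselves and lay above all normal lungs (log2 2.06, SE 0.20, adjusted p 0.00606).

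Dusp4 (chr8:34807610-34819894), a phosphatase that MAPK signaling induces and that in turn removes phosphate from ERK, measured 3.46, 4.44 and 4.77 CPM in normal lungs and 19.6, 23.2 and 30.5 CPM in tumors (log2 2.52, SE 0.24, adjusted p 0.00954). Areg (chr5:91139599-91148432), which encodes the EGF receptor ligand amphiregulin, was 11.8, 13.1 and 4.08 CPM in normal lungs and 51.1, 50.6 and 14.3 CPM in tumors. Its lowest tumor, that of mouse m378, was barely above the highest normal lung, yet within each mouse the rise was close to the fitted 3.88-fold (log2 1.96, SE 0.21, adjusted p 0.0064). Ereg, the gene of the related ligand epiregulin, was 0.515, 1.69 and 0.919 CPM against 19.8, 30.7 and 7.09 CPM in tumors (log2 4.11, SE 0.57, adjusted p 0.00853).

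Arg2 (chr12:79130788-79156301), the mitochondrial arginase, rose from 7.06, 7.37 and 11.7 CPM to 35.8, 60.1 and 80.6 CPM (log2 2.72, SE 0.24, adjusted p 0.00652), and it overlaps Vti1b. Kng2 (chr16:22985852-23029101), a kininogen gene with a close copy, Kng1, to which reads could be assigned instead, varied among normal lungs from 0.275 to 5.25 CPM and was 20.8, 12.7 and 68.6 CPM in the tumors of mice m335, m372 and m378 (log2 4.53, SE 0.44, adjusted p 0.00398). Mouse m378 was the highest and mouse m372 the lowest in both tissues, and the groups did not overlap. Spag11b, an antimicrobial peptide gene best known from the epididymis, had the largest fold but not the most even one, with 0.307, 10.7 and 37.0 CPM in tumors and at most 1.18 CPM in normal lungs. It is the only one of the 12 whose groups overlap. Others among the 12 were Vcpkmt, 5730559C18Rik, Hs3st3b1 (a heparan sulfate sulfotransferase) and Ckmt1 (mitochondrial creatine kinase, which overlaps Strc).

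**Figure D2:**
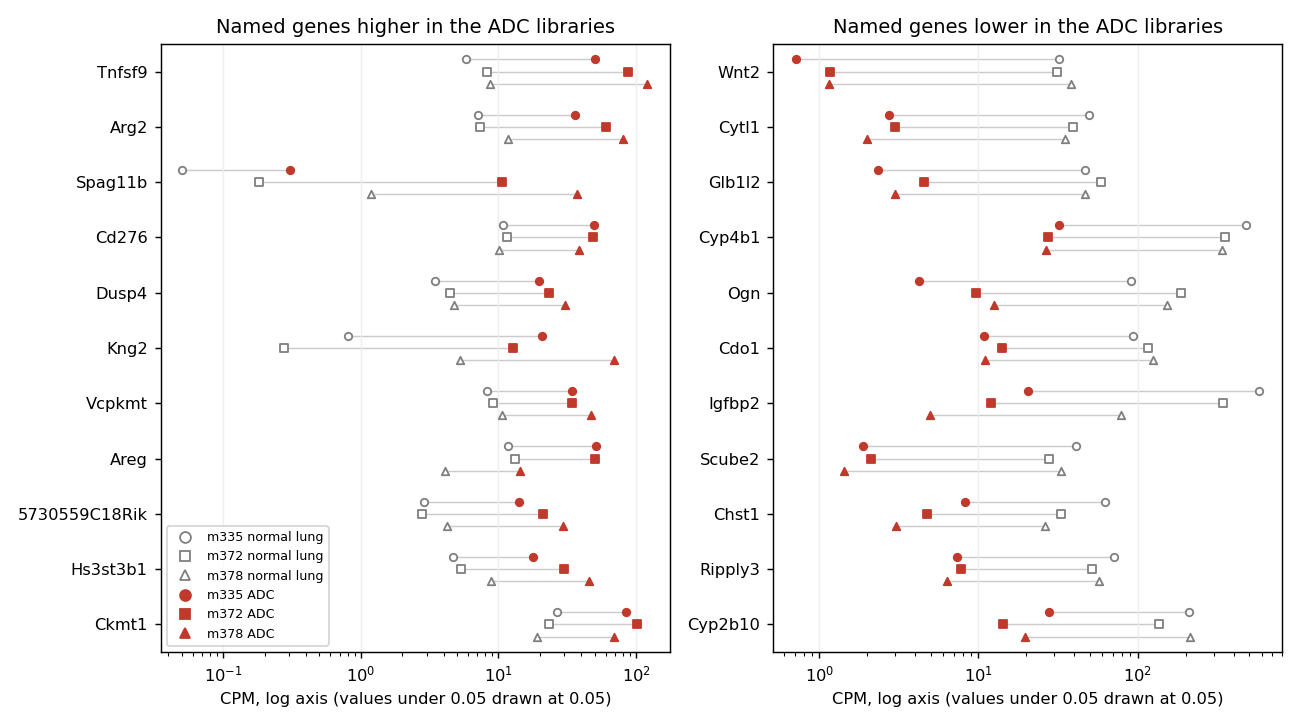
CPM (horizontal log axis) of named genes higher (left) and lower (right) in ADC tumors, with open symbols for normal lungs, filled symbols for tumors, 1 symbol shape per mouse and a line joining the pair. Groups are separated for each gene except Spag11b, whose m335 tumor, at 0.307 CPM, lies among the normal lungs.

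The 12 genes lower in tumors with the lowest p included Wnt2 of the fibroblast list, Igfbp2 of the alveolar type 1 list, and Cyp4b1 and Cyp2b10 of the foreign-compound metabolism list. Their 6-library adjusted p was 0.0507 and their fitted folds ran from 7.67 to 33.5. The fit of 11 libraries again contains the same 6 libraries, and in it 10 of the 12 fell. Chst1, a keratan sulfate sulfotransferase, was among those that did not (adjusted p 0.0535). No tumor value reached the lowest normal lung for any of the 12.

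Wnt2 (chr6:17988940-18030445), a Wnt ligand of lung mesenchyme, was 31.9, 30.9 and 38.0 CPM in the normal lungs of mice m335, m372 and m378 and 0.716, 1.16 and 1.16 CPM in the tumors. That is 33.5-fold lower (log2 -5.07, SE 0.30, adjusted p 0.00403). Cyp4b1 (chr4:115624728-115647705), a lung cytochrome P450 that bioactivates foreign compounds, went from 479, 355 and 337 CPM to 32.1, 27.2 and 26.7 CPM (log2 -3.75, SE 0.25, adjusted p 0.00387). All 3 tumors were far below all 3 normal lungs for both genes.

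Igfbp2, which binds insulin-like growth factors and in the alveolus marks mature type 1 cells, was 580, 342 and 79.1 CPM in normal lungs and 20.6, 12.1 and 4.94 CPM in tumors. The normal lungs differed severalfold among themselves, but the ratio within each pair was alike (log2 -4.55, SE 0.32, adjusted p 0.00824). Ogn, which encodes the matrix proteoglycan osteoglycin and overlaps Cenpp, went from 91.3, 187 and 154 CPM to 4.26, 9.59 and 12.4 CPM (log2 -4.11, SE 0.29, adjusted p 0.00387). The remaining falls were Cytl1, Glb1l2, Cdo1 (cysteine dioxygenase), Scube2, Ripply3 and Cyp2b10, a second cytochrome P450, which measured 211, 136 and 211 CPM in normal lungs and 27.8, 14.3 and 19.6 CPM in tumors.

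The vascular and stromal lists moved in one direction in all 3 mice. All 24 endothelial genes were lower in every pair and 19 fell, with a median log2 fold change of -2.09 against 0.00059 over all genes tested. By mouse the median was -3.06, -1.51 and -1.97 for m335, m372 and m378. Cldn5, the tight junction protein of endothelium, was 1160, 682 and 810 CPM in normal lungs and 70.8, 94.6 and 62.1 CPM in tumors (log2 -3.53, SE 0.36, adjusted p 0.00398). Calcrl and Ramp2, which together form the adrenomedullin receptor, both fell, Calcrl from 276, 355 and 466 CPM to 63.4, 50.5 and 55.2 CPM. Without the normal lung of mouse m378 only 4 of the 24 passed, and likewise without its tumor, which removes the same pair.

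Of 20 fibroblast genes, 15 were lower in every pair and 10 fell (median -1.75). Tcf21, a transcription factor of lipofibroblasts, was 129, 70.7 and 146 CPM in normal lungs and 5.01, 9.72 and 6.94 CPM in tumors (log2 -3.99, SE 0.47, adjusted p 0.0064). Inmt, a methyltransferase abundant in alveolar fibroblasts, went from 1848, 1523 and 1670 CPM to 32.9, 139 and 156 CPM. The m335 tumor was the lowest for both. The smooth muscle and pericyte list had 13 of 14 lower in every pair and 5 fell, among them Myh11, the smooth muscle myosin, with 69.8, 46.6 and 45.7 CPM in normal lungs and 12.2, 6.42 and 8.57 CPM in tumors.

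All 8 mesothelial genes were lower in every pair and 4 fell (median -3.10). They include Upk1b, a membrane protein of the pleural lining, at 45.9, 34.5 and 27.3 CPM in normal lungs and 9.74, 3.82 and 6.46 CPM in tumors. All 11 erythrocyte genes were lower in every pair and 4 fell (median -3.50). Their sum was 32054, 18160 and 13289 CPM in the normal lungs of mice m335, m372 and m378 and 1460, 1254 and 2664 CPM in the tumors, so blood RNA also differed with the group. Its part in other results was not tested. Of 15 skeletal muscle genes, 13 were lower in every pair and 6 fell, and the normal lung of mouse m335, noted above, was the highest in that list.

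Epithelial lists split by cell type. Of 15 alveolar type 1 genes 10 were lower in every pair and 6 fell, with medians of -1.51, -0.66 and -1.37 in mice m335, m372 and m378. Cav1, the caveolin of flat type 1 and endothelial cells, was 571, 630 and 676 CPM in normal lungs and 94.9, 124 and 104 CPM in tumors (log2 -2.54, SE 0.24, adjusted p 0.00398). Hopx, a nuclear protein of type 1 cells, was 515, 507 and 394 CPM against 181, 130 and 91.1 CPM in tumors (adjusted p 0.0178). Ager, a surface receptor of type 1 cells, went from 3394, 1686 and 1934 CPM to 849, 1267 and 967 CPM and missed the threshold (adjusted p 0.1195).

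Of 20 alveolar type 2 genes 7 were higher in every pair, 1 was lower, and 2 rose. Over all genes tested, 20.9% were higher in every pair and 22.4% lower. Cd74, the invariant chain that type 2 cells share with antigen-presenting cells, was 3440, 2852 and 3957 CPM in normal lungs and 15771, 6745 and 7671 CPM in tumors (adjusted p 0.0331). Lcn2, the iron-binding protein lipocalin 2, was 561, 387 and 799 CPM against 1819, 710 and 2456 CPM, with overlapping groups (adjusted p 0.0447). Both also belong to immune lists, Cd74 to antigen presentation and Lcn2 to inflammation.

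The surfactant genes did not move alike. Sftpc, the surfactant protein made by type 2 cells alone, went from 24302 to 55837 CPM in mouse m372 and from 19244 to 46236 CPM in mouse m378, but from 30029 to 12539 CPM in mouse m335. Abca3, the lipid transporter of lamellar bodies, had the same split, from 533 to 1749, from 633 to 1129 and from 768 to 215 CPM in that order. Sftpa1 was higher in all 3 tumors, at 11043, 23964 and 20008 CPM for m335, m372 and m378 against 8811, 7879 and 6548 CPM, without passing (adjusted p 0.1068). The type 2 list median was therefore -0.81 in mouse m335 and 1.29 and 0.97 in mice m372 and m378.

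Of 13 lung lineage factors 5 were higher in every pair, against 20.9% of all genes tested. None passed in the 6-library fit or in all 11, and 5 had an unadjusted p under 0.05 in the former. Foxa2, a forkhead factor of endoderm, was 26.5, 38.1 and 34.9 CPM in normal lungs and 54.7, 64.7 and 59.5 CPM in tumors. Nkx2-1, the master regulator of lung identity, was higher in the tumors of mice m372 (123 to 257 CPM) and m378 (133 to 242 CPM) and lower in that of m335 (170 to 122 CPM). Club cell genes were lower in every pair for 10 of 15, and 2 fell, Aldh1a1 and Gsta3. Scgb1a1, the main secretory protein of club cells, went from 5413, 20422 and 6349 CPM to 586, 1241 and 1154 CPM without passing (6-library adjusted p 0.0590, 0.2113 in all 11). The normal lung of mouse m372 was more than 3 times as high as the other normal lungs.

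**Figure D3:**
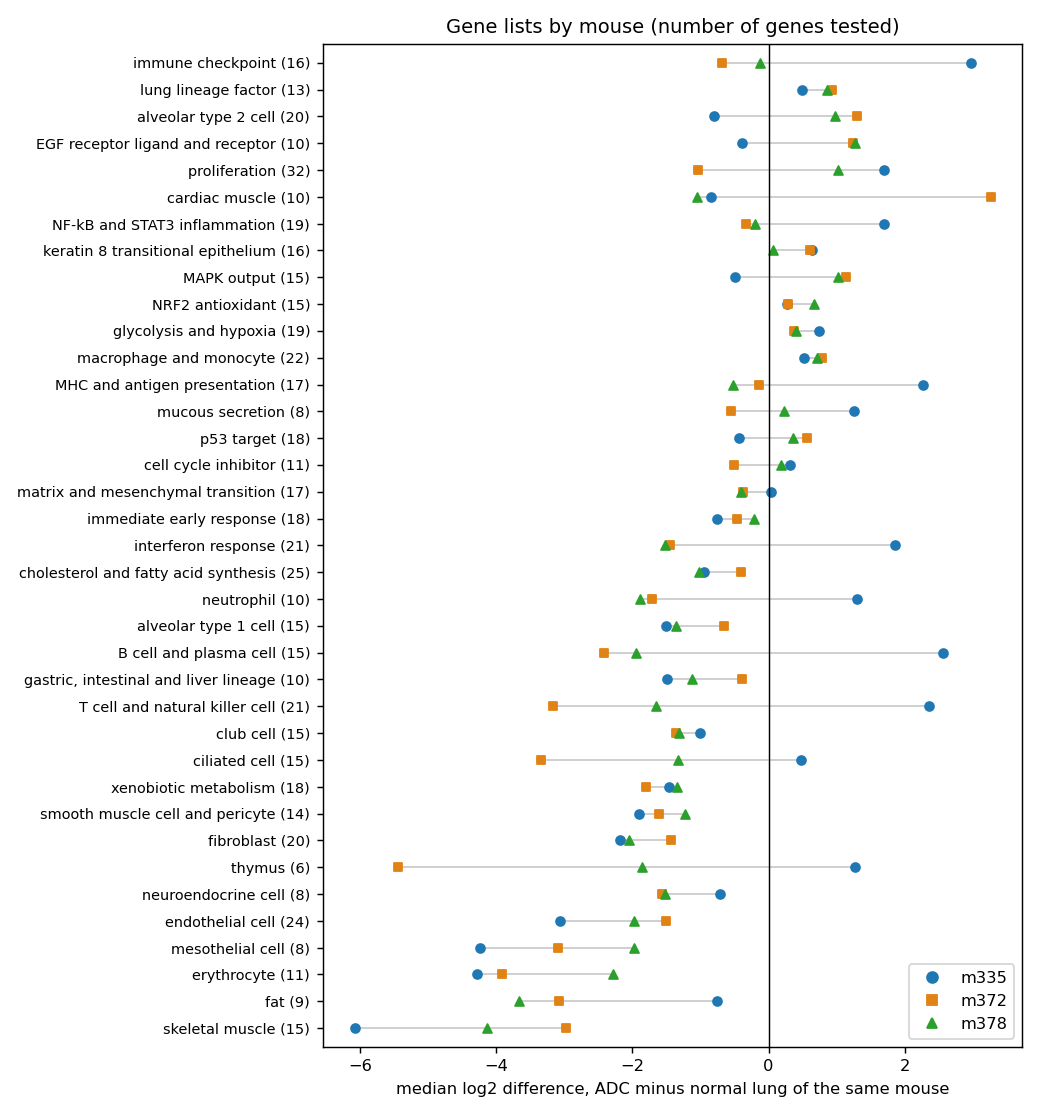
Median log2 difference between tumor and normal lung (horizontal axis) over the tested genes of 37 lists, 1 symbol per mouse. Symbols fall on one side of 0 for 19 lists, and for 14 lists the circle of mouse m335 lies on the opposite side from both other mice.

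Genes downstream of MAPK signaling had 6 of 15 members higher in every pair and 3 that rose. Besides Dusp4 these were Spred1, a Ras inhibitor induced by the pathway, at 42.8, 54.5 and 46.7 CPM in normal lungs and 109, 163 and 180 CPM in tumors (log2 1.63, SE 0.24, adjusted p 0.0141), and Etv4. Etv4, an ETS transcription factor, was 2.15, 0.870 and 0.574 CPM in normal lungs and 18, 20.1 and 33.6 CPM in tumors (log2 4.45, SE 0.67, adjusted p 0.0064). Spry4 and Etv5, feedback and effector genes of the same pathway, were lower in the m335 tumor, Spry4 from 66.9 to 17.3 CPM and Etv5 from 156 to 54.8 CPM. Etv5 is also a member of the type 2 and lung lineage lists. In mouse m372 Spry4 went from 28.3 to 34.5 CPM and Etv5 from 161 to 338 CPM. The list median was -0.49 in mouse m335 against 1.13 and 1.02 in mice m372 and m378.

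Of the EGF receptor family list, the ligands Areg and Ereg rose, while the receptor Egfr itself was 14.4, 12.2 and 7.84 CPM in normal lungs and 9.61, 3.05 and 1.87 CPM in tumors without passing (adjusted p 0.318). Among 18 p53 targets 6 were higher in every pair and 2 were lower, against 20.9% and 22.4% of all genes tested. The 2 that rose were Ccng1 (cyclin G1) and Zmat3. Zmat3, a zinc finger protein bound to RNA, was 27.1, 26.2 and 24.8 CPM in normal lungs and 47.5, 87.0 and 70.5 CPM in tumors (adjusted p 0.0234). Trp53 itself was 43.8, 41.3 and 41.5 CPM against 78.2, 54.8 and 58.8 CPM (adjusted p 0.447).

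Metabolic lists differed in direction. Of 19 glycolysis and hypoxia genes 12 were higher in every pair and 3 lower, and 2 rose. Hk2, a hexokinase, was 26.0, 19.6 and 30.7 CPM in normal lungs and 70.0, 99.6 and 83.8 CPM in tumors (log2 1.74, SE 0.28, adjusted p 0.0195). Ldha, lactate dehydrogenase, rose as well, from 452, 334 and 359 CPM to 753, 1046 and 808 CPM (adjusted p 0.0466). Vegfa, the endothelial growth factor that type 1 cells also make, is in this list by its response to hypoxia, yet it fell from 651, 420 and 404 CPM to 69.5, 166 and 102 CPM (log2 -2.18, SE 0.45, adjusted p 0.0212).

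Of 25 cholesterol and fatty acid genes 14 were lower in every pair and 3 fell, among them Dhcr7 and Idi1 of the sterol branch. Idi1, an isomerase of isoprenoid synthesis, was 59.0, 71.1 and 66.2 CPM in normal lungs and 17.6, 30.3 and 16.5 CPM in tumors (log2 -1.66, SE 0.24, adjusted p 0.0140). Fasn, fatty acid synthase, is also a member of the type 2 list and had the split of Sftpc. It went from 660 to 1923 CPM in m372, from 1048 to 1585 CPM in m378 and from 908 to 319 CPM in m335. Of 18 genes of foreign-compound metabolism 7 were lower in every pair and 4 fell. Fmo1, a flavin monooxygenase, was 155, 131 and 155 CPM in normal lungs and 9.06, 14.8 and 10.4 CPM in tumors (log2 -3.71, SE 0.30, adjusted p 0.00398). Cyp1a1, the cytochrome P450 induced by aromatic hydrocarbons, ranged from 6.55 to 161 CPM in normal lungs and from 0.0399 to 7.61 CPM in tumors (adjusted p 0.0275).

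Of 15 NRF2 genes only Hmox1, heme oxygenase 1, rose, from 38.3, 36.6 and 49.0 CPM to 86.9, 121 and 102 CPM (adjusted p 0.0347). Of 18 immediate early genes 7 were lower in every pair, against 22.4% of all genes tested, and 2 fell, Klf2 and Ier3. Klf2, which is also an endothelial transcription factor, was 430, 146 and 152 CPM in normal lungs and 119, 26.9 and 29.4 CPM in tumors (log2 -2.22, SE 0.26, adjusted p 0.00824). Among matrix and mesenchymal genes the repressors Zeb1 and Zeb2 fell, Zeb1 from 37.8, 48.2 and 58.2 CPM to 15.8, 15.3 and 11.6 CPM (adjusted p 0.0103). Of the keratin 8 transitional list, Clu, the chaperone clusterin, rose besides Areg and Ereg, and it was 3806 CPM in the m335 tumor, 1058 CPM in m372 and 729 CPM in m378 against 478, 376 and 341 CPM in the normal lungs (adjusted p 0.0239).

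The tumor of mouse m335 set itself apart from the other tumors. It was at least 2-fold away from its own normal lung for 2710 genes upward and 3211 downward, against 1147 and 2997 in mouse m372 and 1099 and 2629 in mouse m378. Of 2552 genes past 2-fold in both m335 and m372, 1013 went in opposite directions, as did 674 of 2485 for m335 and m378. For m372 and m378 the number was 152 of 2666. A set of 437 genes, 2.87% of those tested, was at least 2-fold higher in the m335 tumor and at least 2-fold lower in both others, and 79 genes (0.519%) had the opposite pattern. The 6-library fit without this mouse called 3021 genes, 1273 higher and 1748 lower. That fit rests on the pairs of mice m372 and m378 alone and has fewer residual degrees of freedom than the full fit. Mouse m335 also differs from the other 2 in its time after NNK, so mouse and time cannot be told apart.

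**Figure D4:**
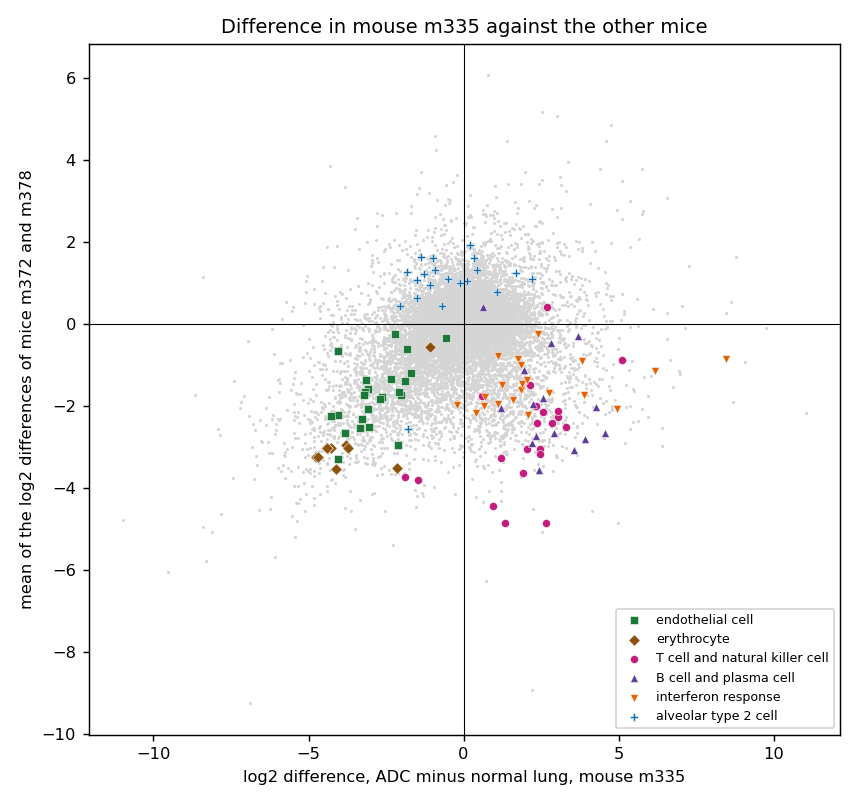
Log2 difference between tumor and normal lung in mouse m335 (horizontal) against the mean difference of mice m372 and m378 (vertical) for all 15227 tested genes (grey), with 6 lists colored. Endothelial and erythrocyte genes lie at lower left, while T cell, B cell and interferon genes lie mostly at lower right.

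Lymphocyte genes were among those that split in this way. Of the 21 T cell and natural killer genes tested, 14 were among the 437, and the list median was 2.36 in mouse m335 against -3.16 and -1.65 in mice m372 and m378. Cd4, the helper T cell coreceptor, went from 13.3 to 111 CPM in mouse m335, from 66.2 to 6.12 CPM in m372 and from 11.5 to 6.46 CPM in m378. Cd3e, a T cell receptor subunit, went from 14.6 to 75.2, from 35.1 to 3.56 and from 13.7 to 4.66 CPM. In mouse m372 the normal lung carries RNA of the thymus list given above, which includes T cell genes too. Its part in the m372 difference was not tested, and in mouse m378, whose thymus sum was 65.7 CPM, Cd3e was lower in the tumor as well.

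Of 15 B cell and plasma cell genes 11 were among the 437. Cd79a, a B cell receptor subunit, went from 42.4 to 216 CPM in mouse m335, from 83.3 to 13.0 CPM in m372 and from 89.1 to 13.1 CPM in m378. Jchain, which joins secreted antibodies of plasma cells, reached 747 CPM in the m335 tumor against 57.2 CPM in its normal lung, whereas tumor and normal lung held 58.9 and 99.4 CPM in m372 and 71.7 and 64.0 CPM in m378. Neutrophil genes had medians of 1.30, -1.71 and -1.89, and 4 of the 10 tested were among the 437. Ltf, the granule protein lactoferrin that gland epithelium also makes, was 290 CPM in the m335 tumor and at most 12.0 CPM elsewhere. S100a9, the neutrophil gene of lowest p, was instead lower in every tumor. It went from 28.9 to 15.4 CPM in m335, from 28.3 to 1.84 CPM in m372 and from 272 to 41.4 CPM in m378. The neutrophil markers Camp and Ngp were too low to be tested.

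Interferon response genes summed to 3958 CPM in the m335 tumor and 491 CPM in its normal lung, compared with 245 and 517 CPM in mouse m372 and 257 and 640 CPM in mouse m378. Of 21 genes 10 were among the 437. Gbp2, a guanylate-binding protein that interferon induces, was 1086 CPM in the m335 tumor, 12.7 and 12.4 CPM in the other tumors and 35.1 to 64.0 CPM in normal lungs. Cxcl9, a chemokine that interferon gamma induces and that attracts T cells, was 485 CPM in the m335 tumor and at most 3.43 CPM in the other 5 libraries. Ubd, the ubiquitin-like FAT10 induced by interferon gamma, was 1170 CPM there and at most 3.30 CPM elsewhere, and it had one of the widest spreads between pairs of any gene.

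Some antigen presentation and checkpoint genes were also highest in the m335 tumor. Of 17 antigen presentation genes 3 were among the 437, and of 16 checkpoint genes 1. B2m, the light chain of MHC class I, was 7809 CPM in the m335 tumor and 487 and 728 CPM in the others, against 936, 948 and 1201 CPM in the normal lungs of mice m335, m372 and m378. Cd274, the checkpoint ligand PD-L1, went from 10.6 to 85.5 CPM in mouse m335, from 14.2 to 11.3 CPM in m372 and from 17.7 to 18.6 CPM in m378. Its receptor gene Pdcd1 (PD-1) was 102 CPM in the m335 tumor and at most 4.35 CPM in any other sample, and Lag3, an inhibitory receptor of exhausted T cells, was 63.6 CPM and at most 3.48 CPM. No member of the T cell, B cell, neutrophil or interferon lists passed in the fit of all 11 libraries. Without the m335 tumor, 7, 4, 4 and 8 of their members in that order passed, all of them lower in the remaining ADC tumors. With all libraries 2 genes of the checkpoint list passed, Cd276 upward and Vsir, an inhibitory receptor of myeloid cells, downward (158, 134 and 172 CPM to 84.2, 49.2 and 64.5 CPM, adjusted p 0.0423).

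**Figure D5:**
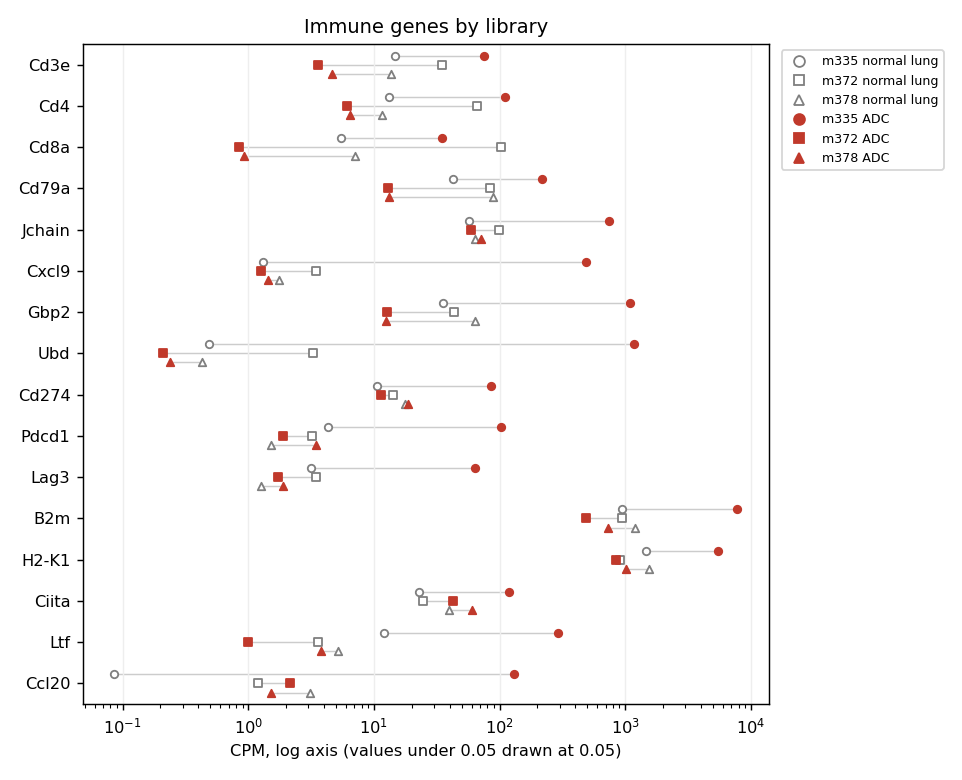
CPM (horizontal log axis) of immune genes, picked after their values were seen, in normal lungs (open) and ADC tumors (filled), 1 symbol shape per mouse. The filled circle of the m335 tumor is the rightmost symbol in every row except Cd8a, where the normal lung of mouse m372, at 102 CPM, is higher.

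Macrophage and monocyte genes did not share that split. Their medians were 0.52, 0.79 and 0.71 in mice m335, m372 and m378, with 10 of 22 higher in every pair and 1 that rose, Ly6c2. Ly6c2, a surface protein of inflammatory monocytes whose neighbor Ly6c1 is nearly identical and so could share its reads, was 27.4, 29.9 and 31.4 CPM in normal lungs and 106, 55.3 and 118 CPM in tumors (log2 1.59, SE 0.30, adjusted p 0.0318). Chil3 and Marco, genes of alveolar macrophages, were higher in each tumor without passing, Chil3 at 527, 656 and 2092 CPM against 376, 326 and 925 CPM. Arg1, the cytosolic arginase, was 136 CPM in the m335 tumor and 7.58 and 16.8 CPM in the others, against 20.4, 3.39 and 4.25 CPM in normal lungs.

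Proliferation genes divided the tumors differently. Their median was 1.69 in mouse m335 and 1.02 in mouse m378 but -1.04 in mouse m372, and 1 of 32 was higher in every pair. Mki67, a marker of cycling cells, went from 12.1 to 45.2 CPM in m335, from 14.6 to 33.5 CPM in m378 and from 62.0 to 21.0 CPM in m372. The m372 normal lung was thus the highest of the 6 libraries for Mki67. It is also the one with the high thymus gene sum, whose part in this was not tested. Cdkn2a, the INK4A and ARF tumor suppressor locus, was higher in each tumor, at 9.71, 5.07 and 4.74 CPM against 2.03, 1.51 and 4.14 CPM, without passing (adjusted p 0.152).

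Several genes were carried by mice m372 and m378 or by one tumor alone. Ptprn2, a membrane protein of secretory granules, was 148 and 196 CPM in the m372 and m378 tumors, 6.51 CPM in the m335 tumor and at most 3.72 CPM in normal lungs (adjusted p 0.0776). Other granule and neuroendocrine genes did not follow it, since the list median was -0.71, -1.56 and -1.53 by mouse and 6 of its 14 members were too low to be tested. Ccl20, a chemokine for dendritic cells and lymphocytes, was 130 CPM in the m335 tumor and at most 3.10 CPM elsewhere. Cdhr1, a cadherin best known from photoreceptors, was 37.1 CPM there and at most 1.55 CPM elsewhere.

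Cardiac genes were not spread evenly over the tumors that held them. The m372 tumor had 314 CPM of Nppa, the atrial natriuretic peptide, 33.8 CPM of Myl7, the atrial myosin light chain, and 41.0 CPM of Tnnt2, cardiac troponin T. In the m378 tumor Nppa was 0.0399 CPM, Myl7 0.598 CPM and Tnnt2 0.718 CPM, at or below the level of normal lungs. The myosin heavy chain genes Myh6 and Myh7 were nevertheless high in both, Myh6 at 259 and 107 CPM against 17.4 and 14.8 CPM in their normal lungs, and Myh7 at 1340 and 542 CPM against 79.9 and 53.5 CPM. In the m335 tumor Myh6 was 1.98 CPM, against 0.944 CPM in its normal lung. Myh6 rose in the fit of all 11 libraries (adjusted p 0.0179), and Myh7, which lies beside it in the genome, did not (adjusted p 0.317). In that fit Myh6 was also higher in ADN tumors than in normal lungs (log2 4.64, adjusted p 0.00465).

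ADC and ADN tumors were also set against each other in the fit of all 11 libraries, in which only mouse m335 gave both. A single gene passed, Apoa1, which is 0.00634% of 15764, and 1048 had an unadjusted p under 0.05. Tnfsf9, Arg2, Dusp4 and Areg passed in ADN tumors against normal lung, with log2 fold changes of 3.99, 2.82, 2.15 and 3.06, as did Wnt2 with -3.06 and Cyp4b1 with -2.64. Kng2 was 2.96 higher on the log2 scale in ADC than in ADN tumors (SE 0.49) and Ereg 3.36 lower (log2 -3.36, SE 0.61), neither of which passed (adjusted p 0.357 and 0.507). The ADC and ADN comparisons with normal lung share only the normal lung of mouse m335 within a mouse, and they come from one fit. They are therefore not independent of each other.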

How the data were processed

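The deposited table holds the authors' expected counts for 36285 transcripts, with 1 column per library. The tools named in the submitters' processing notes are Partek, Bowtie2 (2.1.0) and STAR (2.4.1d), and the build is mm10. No source used here gives the strand setting or annotation. Poly-A libraries were made from RNA of integrity number 7 or more and run on an Ion Proton, per the labels' protocols.

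Transcripts were summed by gene symbol (24515 genes), rounded, filtered with filterByExpr (minimum count 10, 15227 genes left), and tested by quasi-likelihood in edgeR 4.0.16 (R 4.3.3, TMM scaling) with mouse as a block. P-values are two-sided and adjusted by Benjamini-Hochberg over all genes. SE values are from the 6-library fit, except those of ADC against ADN tumors, which are from the fit of all 11 libraries. Each SE is the absolute log2 fold change divided by the square root of the test's F statistic. Pair differences are log2 CPM with a prior count of 2. The pairing comes from the mouse identifiers. Deviations of tumor and own normal lung correlated at -0.0648, -0.0676 and 0.259 for m335, m372 and m378. The samples of a group come from different mice.

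Named genes are the 12 rises and 12 falls filled by lowest p because none passed, the 3 members of lowest p in each list, a short list of known lung cancer genes and the 8 genes of widest spread between pairs. The others named are examples chosen after their values were seen. The members and the 37 lists were chosen with earlier results of these data known. DESeq2 1.42.0 and limma 3.58.1, other scalings, no filter, no block and single mice left out were the alternatives. The 24 symbols turned into dates and the 58 on more than 1 chromosome were not named. Some other genes are not reported here.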

Additional observations from a re-analysis of the deposited data

Results flagged for a closer look

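Apoa1, the main apolipoprotein of high-density lipoprotein, differed between ADC and ADN tumors by -11.58 on the log2 scale (SE 0.94, edgeR quasi-likelihood adjusted p 0.0232, all 11 libraries). It was 96.3, 373.7 and 3.31 CPM in the ADN tumors of mice m335, m368 and m350, at most 0.119 CPM in the 3 ADC tumors (counts of 0, 4 and 3) and at most 0.228 CPM in the 5 normal lungs. The distance comes from high ADN values, and ADC tumors were at the level of normal lung.

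Ly6c2 was higher in the tumor of all 3 ADC pairs, with a median pair difference of 1.905 on the log2 scale (1.95, 0.886 and 1.905 for m335, m372 and m378), and lower in the tumor of all 3 ADN pairs (-0.309, -0.708 and -1.62). The test of ADC against ADN gave a difference of 2.41 (SE 0.38), which missed the threshold (adjusted p 0.340).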

How the results depend on the processing

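The 6-library count of 0 genes passing depended on the fit. Other scalings gave 0 genes with DESeq2 size factors (2659 at an unadjusted p under 0.05), 0 with Rn45s left out and 440 with library totals, 32 higher and 408 lower, a scaling that shifts the median of all genes to -0.19 on the log2 scale. Without the filter on low counts 322 genes passed. DESeq2 called 1718, limma 290 and the fit of all 11 libraries 753. Without the replicate block, that is without the pairing by mouse, 705 passed (102 higher, 603 lower). Leaving out 1 pair gave from 0 (mouse m372) to 3021 (mouse m335) genes, with 1 for mouse m378. The cause was not tested. The count of 753 became 1517 without the replicate block (541 higher, 976 lower), and it ran from 71 (normal lung of m378) to 1071 (tumor of m335) when 1 library was left out, with 458 and 379 without the normal lungs of m335 and m372, 373 without the tumor of m372 and 76 without that of m378. Those alternatives were chosen after seeing the data. With scaling, filter or prior count changed, the genes at least 2-fold higher in all 3 pairs numbered 115 to 190, those lower 987 to 1259, and the lists with one sign in every mouse 17 to 19. None of the 90 genes followed through the 6-library alternatives changed direction, where measured. They were mostly genes with one direction in all 3 pairs, so these alternatives could hardly reverse them. Genes whose pairs split, such as Sftpc, Nkx2-1, Mki67 and Cd274, were not among the 90. Medians of up to 6 of the 37 lists changed sign when 1 pair was left out. With 3 pairs, a missed threshold does not show that a gene was unchanged. Counts of single reads limit genes of low CPM.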

Other observations

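Some genes differed widely between mice in both tissues. H2-Eb1, a class II MHC chain, was 827 and 1115 CPM in the normal lung and tumor of mouse m378, 21.1 and 122 CPM in mouse m335 and 22.8 and 46.5 CPM in mouse m372. Xist, transcribed from the inactive X chromosome, was 205 and 206 CPM in mouse m378 and at most 0.458 CPM in mouse m372, and Ddx3y of the Y chromosome was 17.8 and 43.6 CPM in mouse m335 and 45.6 and 26.3 CPM in mouse m372. In mouse m335 Xist was 1.23 CPM in the normal lung and 8.96 CPM in the tumor. Where those reads came from was not tested.

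Fat and airway genes were uneven among the normal lungs. Cfd, the adipsin of fat cells, went from 43.2 to 0.0233 CPM in mouse m372 and from 30.1 to 0 CPM in mouse m378. In mouse m335 it went the other way, from 0.572 CPM in the normal lung to 2.86 CPM in the tumor. Car3, the carbonic anhydrase of fat and muscle, was 19.5, 61.0 and 54.2 CPM in the normal lungs and at most 0.102 CPM in the tumors. Foxj1, the transcription factor of ciliated cells, went from 64.5 to 3.58 CPM in mouse m372 and from 33.5 to 18.8 CPM in mouse m378, and was 32.1 and 36.0 CPM in mouse m335. Muc5b, an airway mucin, was 41.9 CPM in the m335 tumor, 0.605 and 2.35 CPM in the other tumors and at most 13.1 CPM in normal lungs.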
